A study of Mus musculus with 159 samples.

Results

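The livers of female C57BL/6J mice that drank ethanol by 3 different schedules were examined for 1 shared change in each transcript. The 60 liver arrays of the Chronic, CI (Chronic Intermittent) and DID (Drinking in the Dark) studies were used, out of 159 arrays in all, with 10 control and 10 ethanol-treated mice in each study. A single treated-less-control effect was fitted to each of the 8518 probes that had values in all 3 studies, with the study as a block, so that each treated mouse was set only against water-drinking controls of its own study. Controls received water alone. Chronic mice had ethanol (20%) and water at all times for 30 days, CI mice had the same choice every other day for 57 days (29 drinking days), and DID mice had ethanol in place of water for 2 or 4 h of the dark phase over 36 days. Livers were collected 20 to 24 h after ethanol was last offered, in the dark phase for DID and in the light phase for the other studies. The labels give an age of 2.5 months for all mice, while the methods give about 3 months at the start for Chronic and CI and 2 months for DID. Each array held the liver RNA of 1 mouse.

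Hepatocytes clear ethanol mainly through alcohol dehydrogenase, a microsomal P450 and catalase, and the acetaldehyde formed is oxidised to acetate by aldehyde dehydrogenases. The nuclear receptor PPAR alpha pairs with the retinoid X receptor and turns on genes of peroxisomal, microsomal and mitochondrial fatty acid oxidation. Reactive aldehydes and other electrophiles are removed by glutathione transferases, epoxide hydrolase and related enzymes, many of which are under the control of the factors NRF2 and CAR. The liver also makes most proteins of the blood plasma, including complement, serpins and acute phase proteins.

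Values were log2 intensities, normalised by the authors within each study, and a change is the treated mean less the control mean in log2. A probe is called at an adjusted p under 0.05 (limma with Benjamini-Hochberg adjustment over the 8518 probes). Within a study, arrays correlated with one another at means of 0.974 to 0.992. DID liver arrays fell into 3 clusters, each with as many control as treated mice (5 and 5, 2 and 2, 3 and 3). Values ran from 7.7 to 15.6, with array medians of 8.72 to 9.45, so many probes lay near the lower end of the scale, where a fall is harder to see. The number of arrays limits the precision. Of 10 hepatocyte markers, 9 had values, with a mean log2 level of 15.26 for Apoa1, 13.92 for Cps1 and 9.27 for the albumin probe, while Tat had none. In whole tissue, fewer cells of a type and less RNA per cell cannot be told apart.

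Over the 3 studies, 133 probes (1.56% of 8518) were called, of which 86 were higher (1.01%) and 47 lower (0.552%) in treated mice. These were small changes: the median fold was 1.14 among the higher and 1.15 among the lower probes, 30 of the 133 reached 1.2-fold, the largest rise was 1.46-fold and the largest fall -1.07 in log2 (Serpina1e). With weights on the arrays 224 probes were called, and over the 6073 probes with no blank 61. Of the 48 genes named by rule, 25 had values in all 60 mice and the others lacked 1 to 3. An unadjusted p under 0.05 was met by 1012 probes (11.9%). The sign was the same in Chronic, CI and DID for 130 of the 133 called probes (97.7%) and for 2565 of all probes (30.1%), although a shared sign is in part what a pooled fit selects. Taken 1 study at a time, 149 (1.75%), 21 (0.247%) and 2 (0.0235%) of these probes were called in Chronic, CI and DID, or 151 of 10068 (1.5%), 22 of 9561 (0.23%) and 2 of 8924 (0.0224%) of all probes with values in each. Of the 133 pooled calls, 83 were called in no single study, and of the 172 probes called in at least 1 study, 50 were called by the pooled fit. With 1 probe for each gene (the one with the highest mean over the 60 arrays), 107 of 6279 genes were called (1.7%), 71 higher (1.13%) and 36 lower (0.573%). These shares are the background for the counts of list members below. Of the 6279 genes, 3085 had a change above 0 and 3194 below 0. Without the Chronic study 39 probes were called, 25 of them among the 133, and 97 and 89 were called without CI and DID (73 and 56 among the 133). Just inside the threshold were Hspa2 (0.13, SE 0.038, adjusted p = 0.0499) and Rnf11 (0.15, SE 0.041, adjusted p = 0.0499), and just outside were Rdh9 (0.31, SE 0.087, adjusted p = 0.0502) and Slc6a9 (0.26, SE 0.074, adjusted p = 0.0524).

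The effect of 2 studies was then read in the study left out, which shared no mouse with the fit that chose the probes. Of 39 probes called without Chronic, 29 (74.4%) had the same sign in Chronic, against 53.9% of all probes, and 15 had an unadjusted p under 0.05 there with the same sign (38.5%, against 8.28% of all probes). Of 97 probes called without CI, 82 (84.5%) had the same sign in CI, against 53.9% of all probes, and 25 passed (25.8%, against 6.93%). Of 89 probes called without DID, 69 (77.5%) had the same sign in DID, against 54.9%, and 26 passed (29.2%, against 3.56%). The median change of the called probes was 0.25, 0.23 and 0.21 in the fits that chose them and 0.097, 0.10 and 0.094 in the study left out, so the changes were smaller there. With weights on the arrays the agreement in Chronic was weaker. Of 85 probes called without it, 48 (56.5%) had the same sign there, against 52.2% of all probes.

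**Figure D1:**
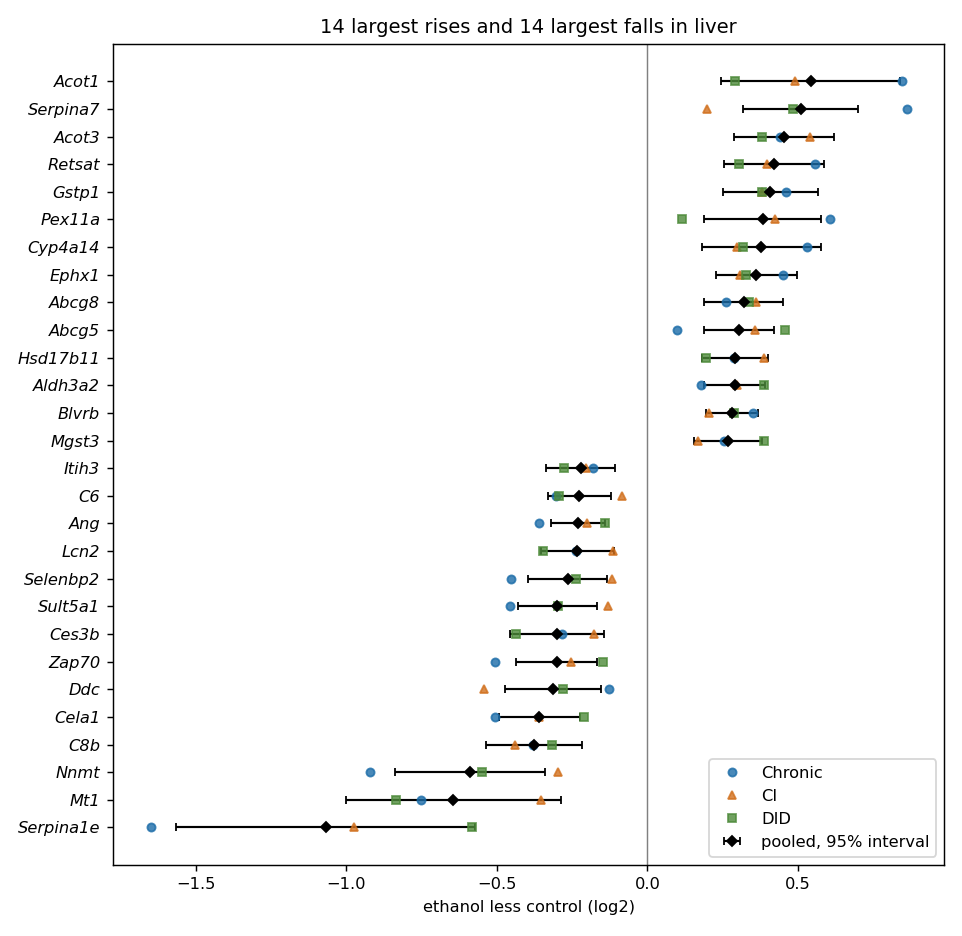
Change of the 14 genes with the largest rise and the 14 with the largest fall, ethanol less control in log2 (horizontal axis), with the pooled change as a black diamond with its 95% interval and the change in Chronic, CI and DID as coloured points. All 3 studies lie on the same side of 0 for each gene, as the rule for naming them required, and the Chronic and CI points of Serpina1e (-1.65 and -0.97) lie farthest out.

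Of the lists counted, that of fatty acid oxidation and PPAR alpha targets was the longest and held the most called rises. Its members, like those of every list here, were chosen with earlier results of these data known. Its counts therefore describe the list and are no test of it. Of 58 genes written in this list, 40 had values, of which 11 rose, 0 fell and 35 had a change above 0, beside 71 (1.13%) called higher and 3085 above 0 of all 6279 genes, with a median change of 0.099 against -0.00055 for all genes and medians of 0.17, 0.10 and 0.069 in Chronic, CI and DID. An unadjusted p under 0.05 was met by 22 of the 40, all of them higher, and by 403 of all 6279 genes on that side. The 11 were acyl-CoA thioesterases (Acot1, Acot3, Acot4), peroxisomal proteins (Acaa1b, Hsd17b4, Abcd3, Pex11a), the microsomal Cyp4a14 and Aldh3a2, and the mitochondrial Eci1 and Bdh1.

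Aldh3a2, which oxidises long-chain fatty aldehydes, was measured at controls from 13.64 to 14.01 (median 13.87) and treated mice from 13.79 to 14.29 (median 14.06) in Chronic liver. In CI liver it was measured at controls from 12.56 to 13.44 (median 13.10) and treated mice from 13.07 to 13.63 (median 13.27). In DID liver it was measured at controls from 12.14 to 12.91 (median 12.67) and treated mice from 12.81 to 13.24 (median 13.07). The ranges overlapped in each study, but 29 of 30 treated mice lay above the control mean of their own study. The pooled change was 0.29 (95% interval 0.19 to 0.39, SE 0.05, adjusted p = 0.000349), with 0.18 in Chronic, 0.30 in CI and 0.39 in DID, and in no single study was it called.

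Acot3, a peroxisomal thioesterase that frees long-chain fatty acids from coenzyme A, was measured at controls from 12.21 to 13.13 (median 12.78) and treated mice from 12.75 to 13.45 (median 13.14) in Chronic liver. In CI liver it was measured at controls from 10.67 to 12.44 (median 11.54) and treated mice from 11.56 to 12.52 (median 12.23), and in DID liver at controls from 10.63 to 11.49 (median 10.85) and treated mice from 11.06 to 11.46 (median 11.31). The 3 groups of treated mice overlapped their controls, least so in Chronic, where 5 mice with values exceeded every control. Pooled over the studies, Acot3 changed by 0.45 (95% interval 0.29 to 0.62, SE 0.083, adjusted p = 0.000686), with 26 of 28 treated mice above their control mean.

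Acot1, the cytosolic member of that family, had the largest mean rise and a wide spread. Set to 0 at the control mean of each study, its values ran from -0.99 to 1.25 in controls and from -1.12 to 2.00 in treated mice, with a treated median of 0.55. All 10 Chronic treated mice lay above their control mean, and 7 CI and 8 DID mice did. Its change over the studies was 0.54 (95% interval 0.24 to 0.84, SE 0.15, adjusted p = 0.0427), with 0.85 in Chronic, 0.49 in CI and 0.29 in DID, and it was not called in 29 of the 60 fits that each left out 1 array (adjusted p up to 0.0671, without Chronic control 5). The other probe fitted for Acot1 was not called. Acot1, Acot3 and Acot4 are close copies of each other on chromosome 12, and how far their probes tell them apart was not tested.

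Acaa1b, a peroxisomal thiolase, ran from -0.20 to 0.24 in controls and from -0.048 to 0.65 in treated mice, with a treated median of 0.16 on the same centred scale. Its rise was smaller than that of the thioesterases but narrow in spread, at 0.23 (SE 0.04, adjusted p = 0.000349), and 29 of 30 treated mice lay above their control mean. Pex11a, which drives the division of peroxisomes, rose by 0.38 (SE 0.097, adjusted p = 0.0228), with 0.61 in Chronic, 0.42 in CI and 0.12 in DID, and 2 of its 3 probes were called. Cyp4a14, a P450 that hydroxylates fatty acids at their far end, increased by 0.38 (SE 0.098, adjusted p = 0.0284), and Bdh1, the last enzyme of ketone body formation, by 0.23 (SE 0.048, adjusted p = 0.00300). Members with smaller rises were Eci1 (0.23, SE 0.055, adjusted p = 0.0110), Acot4 (0.22, SE 0.057, adjusted p = 0.0266), the peroxisomal transporter Abcd3 (0.17, SE 0.041, adjusted p = 0.0151) and the peroxisomal multifunctional enzyme Hsd17b4 (0.14, SE 0.035, adjusted p = 0.0270). The other probe fitted for Bdh1 was not called. Ppara itself had no values in all 3 studies.

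**Figure D2:**
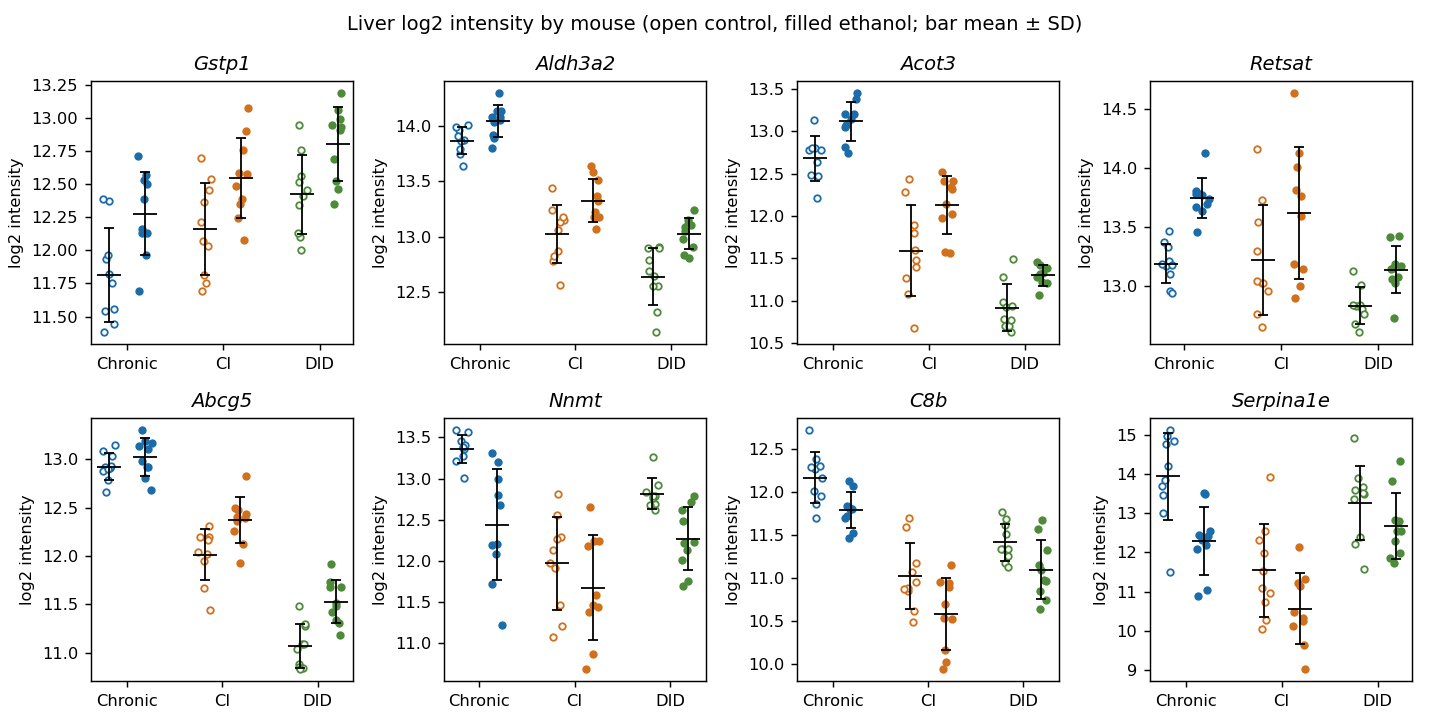
Log2 intensity (vertical axis) of 8 genes in each liver sample of the Chronic, CI and DID studies, with open circles for controls, filled circles for ethanol-treated mice and a bar at the mean ± SD. Gstp1, Aldh3a2, Acot3, Retsat and Abcg5 lie higher on average and Nnmt, C8b and Serpina1e lower in the treated mice of each study, and the ranges of the groups overlap throughout.

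Some enzymes that conjugate or reduce reactive compounds rose. Of 37 glutathione transferases and antioxidant enzymes with values, 4 rose, 0 fell and 27 had a change above 0, with a median of 0.063. Of all 6279 genes, 71 were called higher and 3085 were above 0, with a median of -0.00055. An unadjusted p under 0.05 was met by 13 of the 37 on the higher side and 1 on the lower. Of all genes, 403 and 385 met it. Gstp1, the pi-class transferase, was measured at controls from 11.38 to 12.38 (median 11.79) and treated mice from 11.69 to 12.71 (median 12.27) in Chronic liver, controls from 11.69 to 12.70 (median 12.14) and treated mice from 12.08 to 13.07 (median 12.53) in CI liver and controls from 12.00 to 12.94 (median 12.43) and treated mice from 12.35 to 13.19 (median 12.91) in DID liver. Treated mice sat higher by a like amount in each study, with 0.46 in Chronic, 0.38 in CI and 0.38 in DID, and 9 of 10 lay above the control mean in each. Gstp1 changed by 0.41 (95% interval 0.25 to 0.56, SE 0.078, adjusted p = 0.00117) in the pool, although no study called the gene alone. A second Gstp1 probe was also called, and neither may distinguish Gstp1 from its copy Gstp2. The other risers were the microsomal transferase Mgst3 (0.27, SE 0.057, adjusted p = 0.00426), the alpha-class Gsta4 (0.23, SE 0.061, adjusted p = 0.0389), which acts on the lipid peroxidation product hydroxynonenal, and sulfiredoxin, Srxn1 (0.097, SE 0.027, adjusted p = 0.0413). Of these, Srxn1 was not called in 25 of the 60 fits that each left out 1 array (adjusted p up to 0.0671, without Chronic treated 10), and Gsta4 was not called in 16 of the 60 fits that each left out 1 array (adjusted p up to 0.0615, without CI treated 1). Mgst3 and Srxn1 each had a second fitted probe, which was not called.

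Ephx1, the microsomal epoxide hydrolase, ran from -0.53 to 0.67 in controls and from -0.13 to 0.96 in treated mice, with a treated median of 0.38, and its pooled change was 0.36 (SE 0.067, adjusted p = 0.000857) with 28 of 30 treated mice above their control mean. Blvrb, which reduces biliverdin and flavins, had the smallest p of the named genes that rose. It was measured at controls from 12.56 to 12.93 (median 12.70) and treated mice from 12.92 to 13.39 (median 13) in Chronic liver, where 9 of 10 treated mice exceeded every control. The pooled change of Blvrb was 0.28 (95% interval 0.19 to 0.37, SE 0.043, adjusted p = 0.000178), with 0.35 in Chronic, 0.20 in CI and 0.29 in DID. Retsat, which saturates retinol, rose by 0.42 (SE 0.084, adjusted p = 0.00197) and was called with both of its probes. Its CI controls and treated mice were widely spread, from 12.65 to 14.16 and from 12.89 to 14.63.

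Among 12 genes of ethanol and acetaldehyde metabolism with values, 2 rose and 0 fell. Adh1, the main alcohol dehydrogenase of liver, rose by 0.13 (SE 0.033, adjusted p = 0.0228) and Aldh3a2 by the amount above. Cyp2e1, the ethanol-oxidising P450, had a change of -0.02 (SE 0.035, adjusted p = 0.927), Aldh2, the mitochondrial acetaldehyde dehydrogenase, of 0.018 (SE 0.025, adjusted p = 0.892), and catalase (Cat) of 0.099 (SE 0.083, adjusted p = 0.739). These 3 were not called, and Adh1 lay at the top of the intensity scale, with a mean of 15.05. The other probe fitted for Adh1 was not called. Of 26 drug-metabolising P450 genes and regulators with values, Cyp2e1 among them, 0 rose and 1 fell: Cyp2c70, which hydroxylates bile acids in mice, at -0.21 (SE 0.045, adjusted p = 0.00444).

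Of 18 genes of bile acid synthesis and transport with values, 3 rose and 1 fell, beside 71 and 36 of all 6279 genes. Of the 18, 9 had a change above 0. Abcg5 and Abcg8, whose proteins pair to pump sterols into bile, rose together. Abcg5 was measured at controls from 12.66 to 13.15 (median 12.91) and treated mice from 12.69 to 13.31 (median 13.04) in Chronic liver, controls from 11.45 to 12.31 (median 12.10) and treated mice from 11.93 to 12.83 (median 12.40) in CI liver and controls from 10.83 to 11.49 (median 11.07) and treated mice from 11.19 to 11.92 (median 11.50) in DID liver. The groups overlapped in each study, least in CI, where 7 of 10 treated mice exceeded every control. The pooled change was 0.30 (95% interval 0.19 to 0.42, SE 0.058, adjusted p = 0.000972), with 0.097 in Chronic, 0.36 in CI and 0.46 in DID, and the paradigms were not shown to differ (adjusted p = 0.525). Abcg8 changed by 0.32 (SE 0.065, adjusted p = 0.00253), with 0.26 in Chronic, 0.36 in CI and 0.34 in DID. Abcc3, an export pump of the hepatocyte's blood side, rose by 0.20 (SE 0.051, adjusted p = 0.0263), and Cyp27a1, the mitochondrial sterol hydroxylase of the acidic bile acid pathway, fell by 0.18 (SE 0.047, adjusted p = 0.0296).

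On chromosome 17, 1 RefSeq start of Abcg8 lies head to head with that of Abcg5, 109 bases away, while another Abcg8 start lies within Abcg5, and the shared stretch is shown because they rose together. It is the RefSeq promoter window of Abcg8 (GRCm38.p6, plus strand, 250 bases before to 50 after the start), in which capitals mark the bases between the start of Abcg5, transcribed to the left, and this start of Abcg8, transcribed to the right.

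Abcg8, chr17:84682871-84683170: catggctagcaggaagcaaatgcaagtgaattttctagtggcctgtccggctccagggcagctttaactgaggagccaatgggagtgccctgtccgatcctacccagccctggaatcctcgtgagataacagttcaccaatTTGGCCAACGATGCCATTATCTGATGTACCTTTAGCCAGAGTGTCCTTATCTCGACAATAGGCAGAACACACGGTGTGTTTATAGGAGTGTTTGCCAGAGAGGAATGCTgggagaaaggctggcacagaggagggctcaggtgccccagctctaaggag

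None of the motifs searched (given with the promoters of Mt1 and Blvrb) was found in the Abcg8 window, which says only that those letters are not in it.

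Lipid droplet and triglyceride genes were more mixed, with 2 of 28 higher and 1 lower, 20 above 0 and a median of 0.059. Of all 6279 genes, 71 were called higher, 36 lower and 3085 were above 0. Hsd17b11, a dehydrogenase of the droplet surface, ran from -0.39 to 0.38 in controls and from -0.10 to 0.74 in treated mice, with a treated median of 0.25. Its pooled change was 0.29 (SE 0.055, adjusted p = 0.000972), and 28 of 29 treated mice lay above their control mean. The other probe fitted for Hsd17b11 was not called. Gpat3, which starts triglyceride assembly, rose by 0.098 (SE 0.025, adjusted p = 0.0236), and Ces3b, a carboxylesterase, fell by 0.30 (SE 0.078, adjusted p = 0.0284). Ces3b had 3 fitted probes, and the others were not called. Plin2, a coat protein of droplets, was not called in the pooled fit (0.19, SE 0.091, adjusted p = 0.374), with 0.59 in Chronic, -0.095 in CI and 0.075 in DID. None of 18 fatty acid synthesis genes was called, and the smallest p among them was that of the desaturase Scd1 (0.24, SE 0.073, adjusted p = 0.0722, unadjusted p = 0.00140). An unadjusted p under 0.05 was met by 2 of them in each direction, beside 403 higher and 385 lower of all 6279 genes.

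Cholesterol synthesis and uptake genes lay below 0 almost throughout. Of 19 with values, 18 had a change below 0 and 8 an unadjusted p under 0.05, beside 3194 below 0 and 385 lower at that p of all 6279 genes. Their median was -0.15, and 1 was called: Srebf2, the factor that turns these genes on, at -0.12 (SE 0.034, adjusted p = 0.0487). It was not called in 42 of the 60 fits that each left out 1 array (adjusted p up to 0.0781, without DID control 8). The medians were -0.12 in Chronic, -0.37 in CI and -0.02 in DID. Msmo1, a demethylating enzyme of the pathway, had a change of -0.38 (SE 0.13, adjusted p = 0.119), with -0.44 in Chronic, -0.65 in CI and -0.053 in DID, and Hmgcs1, which makes its early precursor, of -0.28 (SE 0.11, adjusted p = 0.254), with -0.16 in Chronic, -0.64 in CI and -0.046 in DID. These genes and the synthase Fdps (-0.30, SE 0.12, adjusted p = 0.255) did not pass.

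**Figure D3:**
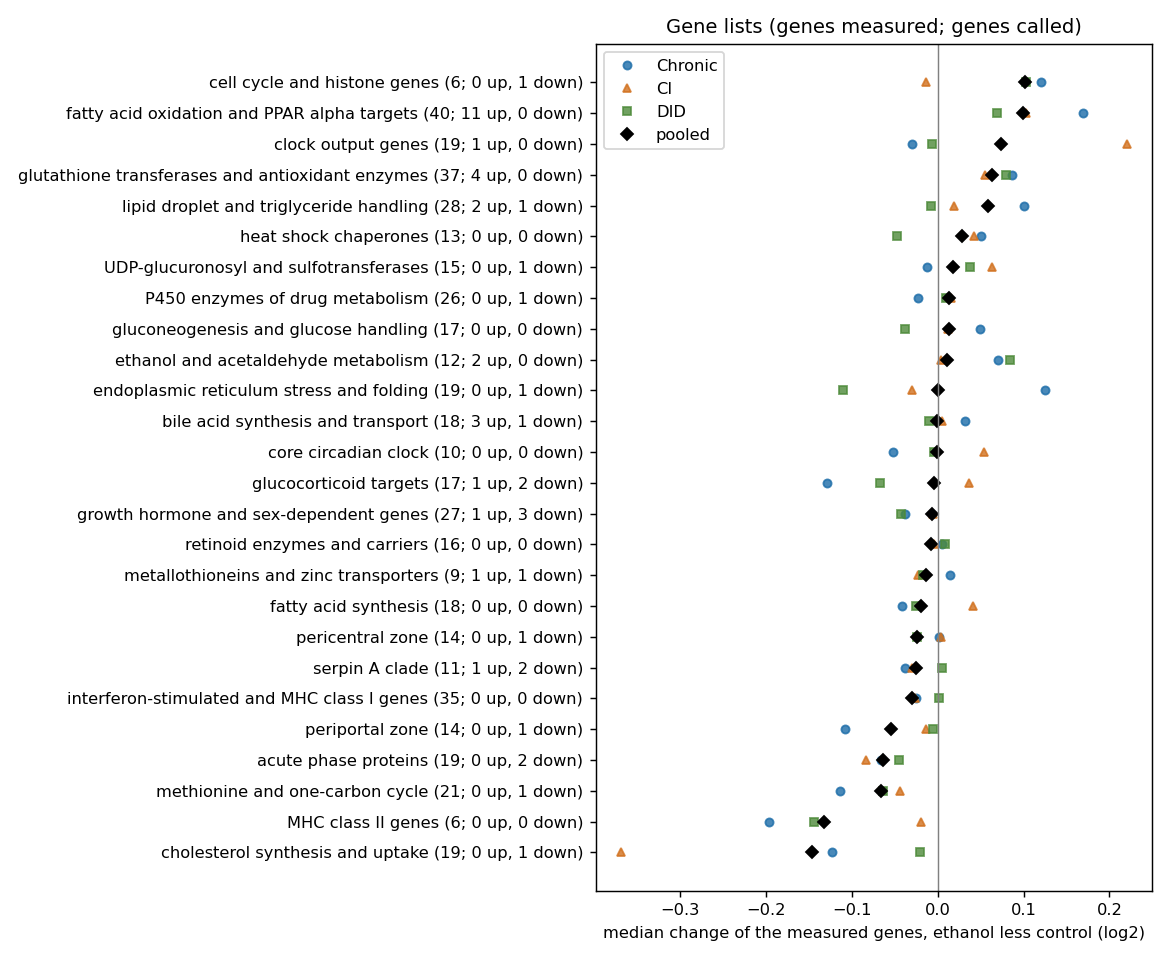
Median change of the measured genes of each gene list other than cell markers, with 3 or more genes measured (horizontal axis, ethanol less control in log2), pooled (black diamonds) and in Chronic, CI and DID (coloured points), with the number of genes measured and of genes called higher and lower beside each name. Fatty acid oxidation and PPAR alpha targets have 11 genes higher and a pooled median of 0.099, and cholesterol synthesis and uptake has a pooled median of -0.15, with its CI median at -0.37.

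The largest fall was that of Serpina1e, an alpha-1-antitrypsin gene. It was measured at controls from 11.51 to 15.13 (median 14.03) and treated mice from 10.88 to 13.52 (median 12.37) in Chronic liver. In CI liver it was measured at controls from 10.05 to 13.93 (median 11.31) and treated mice from 9.03 to 12.14 (median 10.40), and in DID liver at controls from 11.58 to 14.91 (median 13.51) and treated mice from 11.74 to 14.32 (median 12.55). The control mice alone spanned over 3 units in each study, and 2, 2 and 0 treated mice lay below every control in Chronic, CI and DID. Its pooled change was -1.07 (95% interval -1.56 to -0.57, SE 0.25, adjusted p = 0.00971), with -1.65 in Chronic, -0.97 in CI and -0.58 in DID and 27 of 30 treated mice below their control mean. The alpha-1-antitrypsin genes are near copies of each other, so that the probe may read more than Serpina1e. Among 11 measured serpins of clade A, 2 fell and 1 rose.

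The rise was that of Serpina7, which encodes the thyroxine-binding globulin of plasma, at 0.51 (95% interval 0.32 to 0.70, SE 0.096, adjusted p = 0.000972). It was measured at controls from 8.47 to 8.80 (median 8.62) and treated mice from 8.98 to 10.27 (median 9.40) in Chronic liver, and all 10 treated mice there exceeded every control. In DID liver 8 of 10 did and in CI liver 0, with changes of 0.48 and 0.20. The difference between the 3 was not called (adjusted p = 0.428). The other fall in the clade was that of Serpina10, which inhibits clotting factor X, at -0.16 (SE 0.041, adjusted p = 0.0312), not called in 4 of the 60 fits that each left out 1 array (adjusted p up to 0.0513, without DID control 6).

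Falls were called for several further genes of secreted plasma proteins. Complement genes had no list here, so the number of them measured and not called is not given. C8b, a chain of complement component C8, ran from -0.53 to 0.68 in controls and from -1.08 to 0.26 in treated mice, with a treated median of -0.36 on the centred scale, and its pooled change was -0.38 (SE 0.08, adjusted p = 0.00375), with -0.38 in Chronic, -0.44 in CI and -0.32 in DID. C6, another component of the membrane attack complex, changed by -0.23 (SE 0.052, adjusted p = 0.00867). C9, which forms the pore, changed by -0.20 (SE 0.057, adjusted p = 0.0490), and the plasmin inhibitor Serpinf2 by -0.17 (SE 0.044, adjusted p = 0.0298) (C9 and Serpinf2 were chosen after their values were seen). Of 19 acute phase genes with values, 0 rose, 2 fell and 16 were below 0. Of all 6279 genes, 36 were called lower and 3194 were below 0. An unadjusted p under 0.05 was met by 6 of the 19 on the lower side, beside 385 of all genes. The 2 that fell were Itih3, an inter-alpha-trypsin inhibitor heavy chain (-0.22, SE 0.057, adjusted p = 0.0279), and Lcn2, an iron-scavenging lipocalin (-0.23, SE 0.061, adjusted p = 0.0286). Ang, a secreted ribonuclease, changed by -0.23 (SE 0.045, adjusted p = 0.00139), and Igf1, the growth factor that liver releases under growth hormone, by -0.16 (SE 0.039, adjusted p = 0.0140).

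Nnmt, which methylates nicotinamide and consumes S-adenosylmethionine, was measured at controls from 13.01 to 13.59 (median 13.38) and treated mice from 11.23 to 13.31 (median 12.44) in Chronic liver. In CI liver it was measured at controls from 11.08 to 12.81 (median 12.05) and treated mice from 10.69 to 12.65 (median 11.53), and in DID liver at controls from 12.62 to 13.26 (median 12.78) and treated mice from 11.70 to 12.79 (median 12.23). All 10 Chronic and all 10 DID treated mice lay below their control mean, while CI mice fell on both sides of theirs. Over the 3 studies Nnmt changed by -0.59 (95% interval -0.84 to -0.34, SE 0.13, adjusted p = 0.00426), with both probes called. Of 21 methionine and one-carbon genes with values, Nnmt alone was called, and 17 were below 0 with a median of -0.066. Of all 6279 genes, 36 were called lower and 3194 were below 0. Bhmt, which remethylates homocysteine from betaine, had a change of -0.50 (SE 0.17, adjusted p = 0.144), with -0.50 in Chronic, -0.55 in CI and -0.45 in DID, and did not pass.

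Of 9 metallothioneins and zinc transporters with values, 1 rose and 1 fell. Mt1, a metallothionein that binds zinc and copper, ran from -1.18 to 1.34 in controls and from -2.23 to 1.12 in treated mice, with a treated median of -0.77. Both arms were widely spread, and 23 of 30 treated mice lay below their control mean. Its pooled change was -0.64 (95% interval -1.0 to -0.29, SE 0.18, adjusted p = 0.0439), with -0.75 in Chronic, -0.35 in CI and -0.83 in DID, and it was not called in 39 of the 60 fits that each left out 1 array (adjusted p up to 0.0701, without CI treated 1). Slc39a4, a zinc importer, rose by 0.23 (SE 0.054, adjusted p = 0.0106), with all 10 treated mice above every control in Chronic (0.50) and none in CI (0.029) or DID (0.18).

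Promoters of the called genes were searched on both strands for 4 motifs: the direct repeat of AGGTCA with 1 base between the copies, which PPAR alpha binds with its partner, the E-box CACGTG, the D-box TTATGNAA of the clock output factors and the metal response core TGCACNC. RefSeq windows were at hand for 56 of the 71 higher genes, 30 of the 36 lower genes and 5166 of all 6279. The exact repeat was in 0 of the 56, 0 of the 30 and 1 of all 5166. With up to 1 mismatch in each copy it was in 4 of the 56 (7.14%), in 0 of the 30 and in 129 of all (2.5%). The 4 were Ak4, Blvrb, Paqr7 and St3gal6, none of which is on the list of fatty acid oxidation and PPAR alpha targets. The E-box was in 12.5%, 3.33% and 12.4%, the D-box in 7.14%, 13.3% and 3.06%, and the metal core in 16.1%, 13.3% and 14.5% of higher, lower and all genes. The E-box reads the same on both strands, and motifs that share bases were counted each on their own. Mt1 is shown as the metallothionein that fell, and Blvrb as the gene with the largest change among the 4 with the loose repeat, with the metal cores (Mt1) or the repeat on the opposite strand with up to 1 mismatch a copy (Blvrb) in capitals.

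Mt1, GRCm38.p6, plus strand, chr8:94178839-94179138: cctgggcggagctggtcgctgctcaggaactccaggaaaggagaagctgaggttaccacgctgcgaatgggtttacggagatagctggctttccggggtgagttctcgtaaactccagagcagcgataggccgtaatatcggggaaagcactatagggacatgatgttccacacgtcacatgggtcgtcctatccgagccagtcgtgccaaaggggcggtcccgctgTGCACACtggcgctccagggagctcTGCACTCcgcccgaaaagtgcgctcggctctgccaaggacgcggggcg

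Blvrb, GRCm38.p6, plus strand, chr7:27452168-27452467: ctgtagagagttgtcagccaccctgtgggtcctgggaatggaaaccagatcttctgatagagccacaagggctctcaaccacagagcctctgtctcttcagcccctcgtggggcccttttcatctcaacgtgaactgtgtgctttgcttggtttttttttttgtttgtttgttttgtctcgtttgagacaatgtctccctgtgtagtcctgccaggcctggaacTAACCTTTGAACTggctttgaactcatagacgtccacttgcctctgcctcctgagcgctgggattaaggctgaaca

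The metal cores of Mt1 start 23 bases before and 2 bases after the RefSeq start on which its window rests. The repeat of Blvrb ends 14 bases before the start of its own window's transcript. Both starts lie within the gene, as the span of Mt1 begins at 94178883 and that of Blvrb at 27447978. These are matches of letters, not bound sites.

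Of the other genes that fell, Cela1, an elastase known from pancreas, changed by -0.36 (SE 0.067, adjusted p = 0.000972) with 26 of 30 treated mice below their control mean. Ddc, the decarboxylase that makes dopamine and serotonin, changed by -0.31 (SE 0.079, adjusted p = 0.0229), with -0.13 in Chronic, -0.54 in CI and -0.28 in DID. Sult5a1, a sulfotransferase (-0.30, SE 0.065, adjusted p = 0.00551), Selenbp2, a selenium-binding protein (-0.27, SE 0.065, adjusted p = 0.0172), and Zap70, a kinase of T cells (-0.30, SE 0.067, adjusted p = 0.00640), fell in the pool and had a change below 0 in each study. Dnajc3, a chaperone of the endoplasmic reticulum, changed by -0.16 (SE 0.045, adjusted p = 0.0475), the sole call among 19 genes of that stress response, and was not called in 31 of the 60 fits that each left out 1 array (adjusted p up to 0.0781, without CI control 6). Egfr, the epidermal growth factor receptor, had a pair of probes called lower, but its brightest probe was not called (-0.23, SE 0.11, adjusted p = 0.353), so the 3 probes lay below 0 and differed in the call alone (Egfr was chosen after its values were seen).

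Of 17 glucocorticoid targets with values, 1 rose and 2 fell. The rise was that of Hsd11b1, which regenerates active glucocorticoid within the liver, at 0.14 (SE 0.038, adjusted p = 0.0335), with 0.13 in Chronic, 0.14 in CI and 0.15 in DID. It was called with 2 of its 3 probes, and the named probe was not called in 7 of the 60 fits that each left out 1 array (adjusted p up to 0.0567, without CI control 6). The falls were those of Mt1 and Lcn2. Of 27 growth hormone and sex-dependent genes, 1 rose (Acot3) and 3 fell (Serpina1e, C6 and Igf1), beside 71 and 36 of all 6279 genes. At an unadjusted p under 0.05, 2 of the 27 were higher and 8 lower, beside 403 and 385 of all genes. Of 16 retinoid, 17 glucose-handling and 13 heat shock genes 0 were called by limma, with 5, 4 and 2 at an unadjusted p under 0.05, and of 14 pericentral and 14 periportal genes 1 each fell (Cyp27a1 and Igf1). The retinol-saturating Retsat, described above as called, is not on the retinoid list. Of 15 glucuronosyl and sulfotransferases Sult5a1 fell alone.

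Few markers of other cells had values. Of 11 Kupffer, 9 endothelial and 6 stellate or fibroblast markers with values, 0 were called, and their median changes were 0.00044, 0.015 and -0.015. Of 14 lymphocyte markers 2 had values (Cd52, -0.11 (SE 0.051, adjusted p = 0.355), and Cd74, -0.14 (SE 0.10, adjusted p = 0.670)), of 10 neutrophil markers 1 (Lcn2) and of 12 adipocyte and pancreas markers 1 (Cela1). The T cell gene Cd3e, the neutrophil gene S100a8, the exocrine gene Prss1 and all 6 cholangiocyte markers had no values in 1 or more of the 3 studies. The part of such cells in the falls of Zap70, Lcn2 and Cela1 was not tested. Of 9 hepatocyte markers 0 were called (median -0.037). The 6 MHC class II genes were all below 0, with a median of -0.13, and 0 passed, and of 35 interferon-stimulated and MHC class I genes 0 passed. None of the 6 had an unadjusted p under 0.05, and 3 of the 35 did, all lower, beside 385 of all 6279 genes on that side.

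Whether the 3 schedules differed was tested by the study-by-treatment terms. An adjusted p under 0.05 was reached by 12 probes (0.141%), and an unadjusted one by 661 (7.76%), so for most probes a difference was not shown. Of the 133 pooled calls, 2 were among the 12: Olig1 and Pparg. Olig1, a transcription factor known from oligodendrocytes, was measured near the lower end of the scale, at controls from 8.23 to 8.74 (median 8.49) and treated mice from 8.83 to 9.36 (median 9.05) in Chronic liver. It was controls from 8.16 to 8.49 (median 8.31) and treated mice from 8.35 to 8.49 (median 8.41) in CI liver and controls from 8.00 to 8.36 (median 8.16) and treated mice from 8.05 to 8.47 (median 8.24) in DID liver. In Chronic the groups did not overlap, and in CI and DID they did. The changes were 0.55 in Chronic, 0.10 in CI and 0.073 in DID, with an adjusted p of 0.000384 for their difference.

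Pparg, the nuclear receptor of fat storage, was measured at controls from 8.82 to 9.19 (median 9.03) and treated mice from 9.22 to 9.72 (median 9.41) in Chronic liver, again with no overlap. The changes were 0.40 in Chronic, -0.0085 in CI and 0.052 in DID, and they differed with an adjusted p of 0.00577, so the pooled value for Pparg (0.15, SE 0.039, adjusted p = 0.0296) stands for no single study and was not called in 1 of the 60 fits that each left out 1 array (adjusted p up to 0.0505, without Chronic treated 7). Among the differences without a pooled call was Usp2, a rhythmic deubiquitinase, at -0.15 in Chronic, 0.92 in CI and -0.038 in DID (adjusted p = 0.000384). Dbp, a clock output factor, was called in the pool (0.26, SE 0.054, adjusted p = 0.00342) with -0.017 in Chronic, 0.36 in CI and 0.44 in DID, and its difference was not called (adjusted p = 0.130). Of 19 clock output genes with values Dbp alone was called. At an unadjusted p under 0.05, 7 were higher and 2 lower, beside 403 and 385 of all 6279 genes. The medians of the 19 were -0.03 in Chronic, 0.22 in CI and -0.0065 in DID. None of 10 core clock genes was called, and 1 had an unadjusted p under 0.05 (Nr1d2, 0.11 (SE 0.05, adjusted p = 0.376)). Clstn3 (0.21, SE 0.034, adjusted p = 0.000268) was named by the same rule, at 0.37 in Chronic, 0.076 in CI and 0.16 in DID with an adjusted p of 0.152 for the difference. Chronic and CI livers were both taken in the light phase, but after 30 and 57 days, so between them schedule and length of study cannot be told apart. DID livers were taken in the dark phase, and by the methods DID mice started at 2 months, against about 3 for the others. In a difference of DID from the others, schedule, phase of harvest and age therefore cannot be told apart.

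The same treatments in the prefrontal cortex (PFC) of these studies (59 arrays) gave 0 of 10977 probes called by limma (0%) and 531 at an unadjusted p under 0.05 (4.84%). Of the 133 probes called in liver, 91 had values in every PFC set, and 47 of the 91 changed with the same sign there. That share was not set beside the share over all probes. The liver effect less the PFC effect was called for 33 of 7314 probes (0.451%), of which 29 were pooled calls of liver. The difference takes in the same liver arrays that chose the 133, so this overlap is no separate support for those calls. For Hsd17b11 the difference was 0.36 (SE 0.064, adjusted p = 0.00117), with a PFC change of -0.066. Differences of the same direction were called for Gstp1 (0.44), Retsat (0.44), Blvrb (0.30), Aldh3a2 (0.29), Bdh1 (0.31), Ephx1 (0.33) and Pex11a (0.41), and of the other direction for C8b (-0.37), Cela1 (-0.34) and Ang (-0.20). For Acot1 the difference was 0.56 and was not called (adjusted p = 0.0811).

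Other mice of the series had received 2 injections (1 mg/kg) of lipopolysaccharide (LPS), a cell wall component of bacteria that provokes an immune response, with liver taken 1 week after the second (10 treated, 10 control). Their controls received saline by the methods and water by the labels. All 133 called probes had values in LPS liver. Of these, 2 were also called with LPS in the same direction and 1 in the opposite direction. The share of all probes called with LPS was not set beside these counts, so they do not measure overlap. The ethanol effect less the LPS effect was called for 21 of 8449 probes (0.249%), 6 of them pooled calls. It too takes in the ethanol arrays that chose the pooled calls, so the 6 are no separate support for them. H4c8, a gene of histone H4, was -0.15 with ethanol (SE 0.032, adjusted p = 0.00292) and 0.62 with LPS (difference -0.77, SE 0.10, adjusted p = 7.83e-07). H4c8 has many near copies, and its probe may read several. The histone genes H2ac18 and H2ac21 differed in the same way, at -0.53 and -0.29. Serpina7 (0.77), Mgst3 (0.45) and Olig1 (0.35) differed in the opposite direction. Over the ethanol study livers, H4c8, H2ac21, Olig1 and Serpina7 had low mean levels (8.49, 8.30, 8.46 and 8.88). Those of H2ac18 and Mgst3 were 9.61 and 10.59. With a minimum mean of 9, fewer differences than the 21 were called. The fatty acid oxidation list had a median of -0.021 with LPS, and the ethanol effect less the LPS effect was not called for Cyp4a14 (0.67, adjusted p = 0.220), Acot1 (0.65, adjusted p = 0.559), Bdh1 (0.31, adjusted p = 0.129) or Acot3 (0.079, adjusted p = 0.966).

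**Figure D4:**
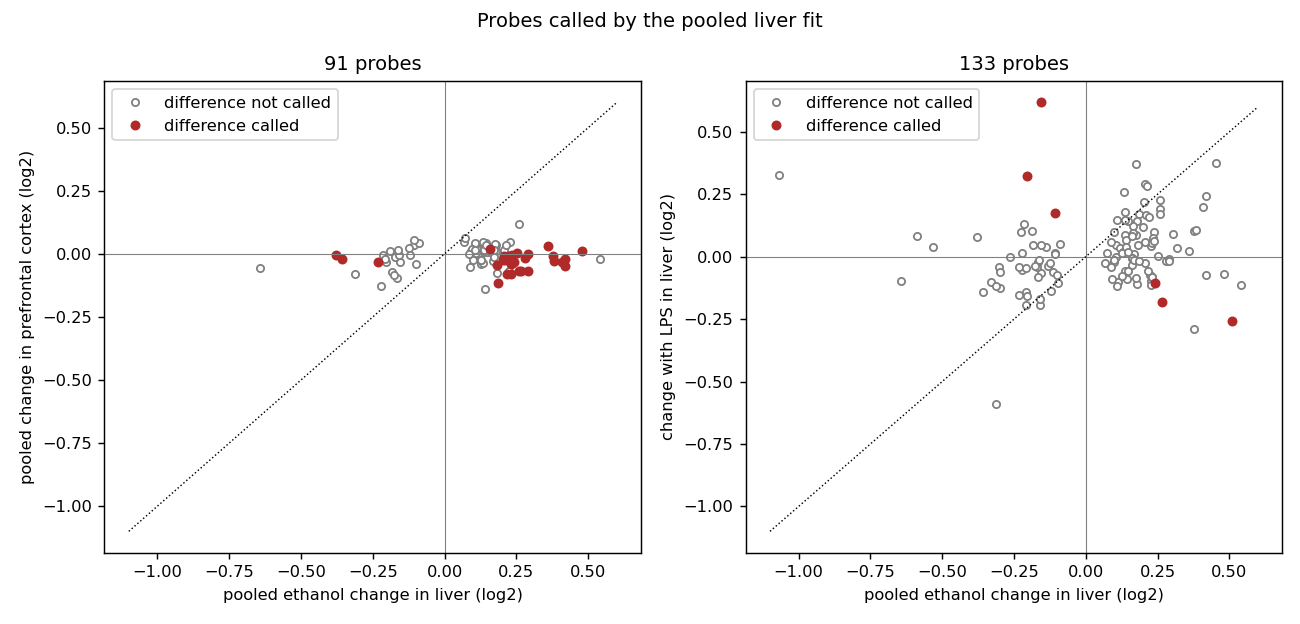
Pooled ethanol change in liver (horizontal axes, log2) of the probes called there against their pooled ethanol change in prefrontal cortex (left, 91 probes) and their LPS change in liver (right, 133 probes), with filled points where the difference between the axes was called and a dotted line where both are equal. The cortex values lie near 0 over the whole range of liver changes, and with LPS the filled points include 3 histone probes that lie above 0.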

How the data were processed

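RNA of 60 livers was hybridised to Illumina MouseRef-8 bead arrays. The log2 intensities deposited by the authors came from variance stabilization and quantile normalization in lumi, whose version is not given in the sources used here. Probes had passed a filter on detection, and outlying single values had been blanked by Grubbs' test. In consequence 60 of the 133 called probes held at least 1 blank, and values of different studies were not compared with each other. Bead signals were not used because their columns carry running numbers that could not be tied to a mouse. Of 13983 probes, 13181 had a gene symbol and 802 none.

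Each probe with values in all 3 studies was fitted in limma 3.58.1 (R 4.3.3) with the study and 1 treatment effect, and p-values were adjusted by Benjamini-Hochberg over the 8518 probes. The model was tested on simulated data. Differences between studies, tissues and LPS were tested by interaction terms or contrasts. Named genes are the 14 largest rises and 14 largest falls with 1 sign in all 3 studies, up to 4 called members of each list by p, and the 5 called genes with the smallest p for a difference between studies. The members and lists were chosen with earlier results of these data known. Alternatives covered weights, replicate block, blanks, clusters, dim probes, scaling, prior variance, ways of pooling, thresholds, and leaving out each study and each array.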

Additional observations from a re-analysis of the deposited data

Results flagged for a closer look

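In 6 of 288 groups of mice looked at (2.08%), 1 array stood apart by Dixon's test. Outlying single values had already been blanked, so this share cannot be set against a chance rate. They were the highest values of Retsat in a Chronic treated mouse (14.13 against 13.80 for the next, a gap of 0.488 of the range), Nnmt in a DID control mouse (13.26 against 12.92 for the next, a gap of 0.531 of the range), Lcn2 in a CI control mouse (8.97 against 8.59 for the next, a gap of 0.520 of the range) and Srebf2 in a DID control mouse (8.76 against 8.53 for the next, a gap of 0.482 of the range), and the lowest values of Selenbp2 in a Chronic control mouse (11.25 against 11.34 for the next, a gap of 0.537 of the range) and Hsd11b1 in a CI control mouse (13.99 against 14.22 for the next, a gap of 0.480 of the range). Each gene remained called without that array except Srebf2 (adjusted p = 0.0781) and Hsd11b1 (adjusted p = 0.0567).

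The ethanol effect differed between the 3 schedules, among the named genes, for Olig1 (adjusted p = 0.000384) and Pparg (adjusted p = 0.00577), with the larger rise in Chronic. It differed between liver and prefrontal cortex for 14 named genes, which the same liver arrays had chosen. The liver effect less the cortex effect was 0.44 for Retsat, 0.44 for Gstp1, 0.41 for Pex11a, 0.36 for Hsd17b11, 0.33 for Mgst3, 0.33 for Ephx1 and 0.31 for Bdh1. It was 0.30 for Blvrb, 0.29 for Aldh3a2, 0.27 for Olig1 and 0.23 for Clstn3, and negative for C8b (-0.37), Cela1 (-0.34) and Ang (-0.20).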

How the results depend on the processing

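The 133 pooled calls became 224 with weights on the arrays, 209 with the 3 DID array clusters as a term, 464 when 3 separate fits were combined by inverse variance, 56 at an adjusted p under 0.01 and 1012 at an unadjusted p under 0.05. Of the 133, 129, 133 and 132 were called in the first 3 of these. Over the 6073 probes with no blank value 61 were called, which were 61 of the 73 calls tested there. Without the Chronic study 39 were called. Leaving out each of the 60 arrays gave 104 to 160 calls. Averaging the study effects, a minimum mean of 9, centring of the arrays and another prior variance stayed within 1.5 times. No pooled call turned its sign under any of these settings. The replicate block gave 75 calls, 74 of them among the 133. Mice with the same number did not deviate together (correlations of pairs from -0.46 to 0.24, and 0 mice correlated best with their own number), so the numbers do not pair the mice. The causes of these changes were not tested.

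For the differences between schedules, 12 calls became 70 with array weights, 7 with the replicate block, 6 with no blank value and 6 with a minimum mean of 9. For liver less cortex, 33 became 12 with the block and 10 with no blank value. For ethanol less LPS, 21 became 39 with weights, 11 with no blank value and 4 with a minimum mean of 9. With weights, 56.5% of the probes called without Chronic had the same sign there, in place of 74.4%, against 52.2% of all probes. Their median change in Chronic was then 0.017. An unadjusted p under 0.05 with the same sign was met by 23.5% of them, against 10.5% of all probes.

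Of the 48 named genes, 0 turned their sign, 39 were called in each of the 60 fits that left out 1 array, and 30 were called under each setting that kept the 3 studies and gave a value. Acaa1b, Acot3, Aldh3a2, Blvrb and Gstp1 were called also without any 1 of the studies. With the block 17 were not called, and without the Chronic, CI or DID study 37, 15 and 27 were not. Background correction, normalization from bead signals and the beadchip as a block were not run, because the bead columns and chips could not be tied to mice. Low intensity limits what falls can be seen.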

Other observations

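Some called genes outside the lists, chosen after their values were seen, belong to carnitine and lipoprotein biology. Slc22a5, which carries carnitine into cells, changed by 0.25 (SE 0.052, adjusted p = 0.00300), with 0.37 in Chronic, 0.23 in CI and 0.17 in DID. Bbox1, the last enzyme of carnitine synthesis, changed by 0.16 (SE 0.044, adjusted p = 0.0383), with 0.24 in Chronic, 0.099 in CI and 0.15 in DID. Apoa4, an apolipoprotein of triglyceride-rich particles, changed by 0.26 (SE 0.065, adjusted p = 0.0223), with 0.44 in Chronic, 0.13 in CI and 0.21 in DID. Each had a change above 0 in all 3 studies, with the highest in Chronic.

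Ddah1, which breaks down an inhibitor of nitric oxide synthase, changed by 0.23 (SE 0.046, adjusted p = 0.00225), with 0.18 in Chronic, 0.24 in CI and 0.27 in DID. Entpd5, a nucleotidase of the endoplasmic reticulum, changed by 0.21 (SE 0.038, adjusted p = 0.000686), with 0.20 in Chronic, 0.17 in CI and 0.25 in DID. Aprt, which salvages adenine, changed by -0.19 (SE 0.038, adjusted p = 0.00225), with -0.33 in Chronic, -0.15 in CI and -0.086 in DID. Id1, an inhibitor of helix-loop-helix factors, changed by 0.22 (SE 0.049, adjusted p = 0.00581), and Lgals1, a lectin of connective tissue cells, by 0.22 (SE 0.055, adjusted p = 0.0237), with 0.46 in Chronic, 0.13 in CI and 0.064 in DID.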
